A study of Ambystoma mexicanum with 6 samples.

Results

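Chromosome 3 of the axolotl (Ambystoma mexicanum) held 476 of the 3529 accessible sites found by ATAC-seq in limb cells sorted by DNA content. A site was counted as lying on chromosome 3 when its sequence name began with either arm, 3p or 3q, and peaks of different libraries were joined into 1 site when they shared at least 1 bp. The sites were chosen by the presence of a peak in the lists, so the number of sites and the libraries that hold them are given as descriptions. Neighbouring sites on chromosome 3 were at least 46 bp apart, and the shortest overlap that joined peaks was 38 bp. The study compared sorted cells with a 4C DNA content, that is, cells with a copied genome, from wild-type animals. The systemically activated group (replicates 4 and 5, whose titles carry the letters CTL) was limb tissue taken 14 days after amputation. The term is used in the field for cells of uninjured limbs that enter the cell cycle after an injury elsewhere in the animal. The blastema group (replicates 1 and 2) came from the regenerating outgrowth and included its wound epidermis, with no day in the labels. The intact group (replicates 1 and 2) came from limbs at homeostasis. The labels do not say whether the libraries of a group came from separate animals, so the p-values below measure the spread between libraries, which may be technical.

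In ATAC-seq the Tn5 transposase inserts adapters into DNA that is not covered by nucleosomes, and places with many insertions, called peaks, mark promoters, enhancers and other open elements. The axolotl genome is among the largest sequenced in a vertebrate, and its chromosome arms are cut into numbered segments so that alignment tools can index them. Peak lists carry no gene names. No gene annotation in the coordinates of the lists was used here, so neither genes nor the defining markers of limb cells could be read from the sites.

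The lists differed in length, and that bears on each statement about which group holds a site. Systemically activated 4 and 5 had 1389 and 2962 peaks, blastema 1 and 2 had 248 and 258, and intact 1 and 2 had 305 and 483. Read depth is unknown because the lists give no read numbers. In these lists depth cannot be told apart from the group.

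On chromosome 3 the systemically activated libraries had 199 and 409 peaks, the blastema libraries 25 and 22, and the intact libraries 22 and 38. The means were 304 ± 148 peaks in systemically activated, 23.5 ± 2.12 in blastema and 30.0 ± 11.3 in intact libraries (SD, n = 2 each). Both systemically activated lists were longer here than every other list, while blastema and intact overlapped. The ratio of systemically activated to intact was 9.87 (log2 difference 3.30), against 5.28 for the whole lists. For systemically activated over blastema it was 12.2 (log2 difference 3.60), against 8.02 for the whole lists. Blastema over intact gave a ratio of 0.811 (log2 difference −0.30), smaller than the gap between the intact replicates. Exact permutation tests, 2-sided, gave p = 0.333 for both comparisons with systemically activated libraries and p = 1 for blastema against intact. With 2 libraries against 2 the test cannot go below 0.333.

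By number of peaks, chromosome 3 also took a larger share of the systemically activated lists. It was 14.3% in systemically activated 4 (Wilson 95% interval 12.6 to 16.3) and 13.8% in systemically activated 5 (12.6 to 15.1). In the blastema libraries the share was 10.1% (6.92 to 14.5) and 8.53% (5.70 to 12.6), and in the intact libraries it was 7.21% (4.81 to 10.7) and 7.87% (5.79 to 10.6). The groups did not overlap in any of the 3 comparisons. The differences were 6.53 percentage points for systemically activated minus intact, 4.76 for systemically activated minus blastema and 1.76 for blastema minus intact (exact permutation tests, 2-sided, p = 0.333 each, the smallest possible). Only counting error enters the Wilson intervals, and peaks that lie close together need not be independent. The intervals describe each list singly and do not measure the spread between libraries, so groups are not compared by them. By summed peak area the order was not the same. Chromosome 3 then held 18.3% and 17.3% in systemically activated, 19.5% and 21.3% in blastema, and 17.8% and 18.6% in intact libraries. Blastema lay above both other groups by area, and systemically activated overlapped with intact.

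**Figure D1:**
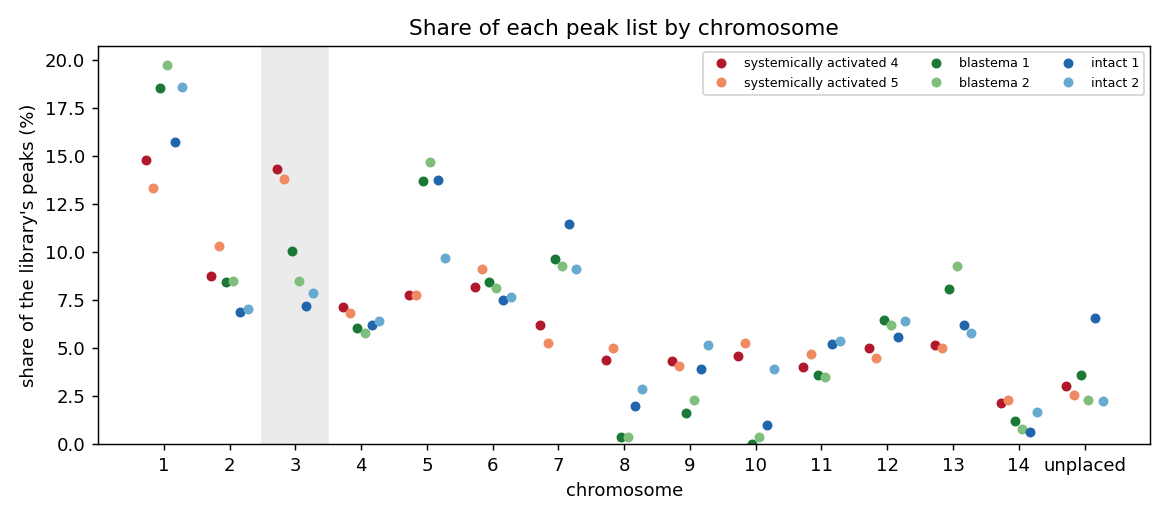
Share of each library's peaks (%) on every chromosome and on unplaced scaffolds, 1 point per library, with chromosome 3 shaded. On chromosome 3 the systemically activated libraries lie at 14.3% and 13.8%, above the blastema libraries (10.1% and 8.53%) and the intact libraries (7.21% and 7.87%).

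Shares of peak number by chromosome put the chromosome 3 difference beside the others. Of the 14 chromosomes, chromosome 3 had the largest difference in mean share, systemically activated minus intact, and the next was 2.59 points on chromosome 2. Chromosomes 7 and 5 had the largest differences in the other direction, at −4.55 and −3.96 points. Shares add up to 100%, so a higher share on one chromosome requires lower ones elsewhere. Chromosome 3 was chosen with earlier results of these lists known. Its place in this order and the p-values for its peak number and share are therefore descriptions, not independent support.

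The difference in share was smaller among the strongest peaks. In systemically activated 4 and 5, the 100 peaks with the largest area each included 15 on chromosome 3, and ranks 101 to 250 included 10 in each. For ranks 251 to 500 chromosome 3 held 19.2% of the peaks of systemically activated 4 and 14.4% of those of systemically activated 5. For ranks 501 to 1000 it held 13.8% and 16.8%. When every list was limited to its 248 strongest peaks, the length of the shortest list, chromosome 3 held 25 and 25 peaks in systemically activated, 25 and 22 in blastema and 22 and 20 in intact libraries. The difference between systemically activated and intact libraries was then 1.61 percentage points. At a summit −log10 q of at least 5, the systemically activated libraries had 12 and 12 peaks on chromosome 3, the blastema libraries 13 and 15, and the intact libraries 15 and 14, so the order of systemically activated and intact turned round. The whole lists had the same order, with 65 and 57 peaks passing in systemically activated and 83 and 74 in intact libraries. In the blastema libraries 59 and 68 passed. As a share of the peaks that passed, the difference was 1.26 percentage points, and the groups overlapped (exact permutation test, 2-sided, p = 0.667). The q is scaled within a library, so a fixed cutoff need not select alike in each.

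Sites were spread over all 6 segments of chromosome 3 but not evenly. Arm 3p held 136 sites and arm 3q 340. Segment lengths were read from the start of the next segment, or, for the last segment of an arm, from the end of its last peak, which makes their density an upper estimate. Over its segments chromosome 3 had 20.0 sites per 100 Mb, against 12.3 per 100 Mb on the other chromosomes. Of the 476 sites, 433 were in systemically activated libraries only, so these densities mainly describe the systemically activated lists. For sites held by all 6 libraries the densities were 0.630 and 0.566 per 100 Mb. The last segment of 3q, segment 3, held 142 sites or 37.4 per 100 Mb, and was the densest of the 66 segments with a site. The segment next below it in density, on another chromosome, had 33.2. The remaining segments of 3q had 16.5, 18.6 and 16.7 sites per 100 Mb, and segments 0 and 1 of 3p had 17.7 and 14.0. The median over the 60 segments of other chromosomes was 10.8. The last segment was also the densest of its arm on every other q arm with several segments except 12q. Examples are 1q segment 2 (20.1), 7q segment 2 (20.0) and 6q segment 3 (17.6). A dense last segment was therefore not particular to 3q.

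**Figure D2:**
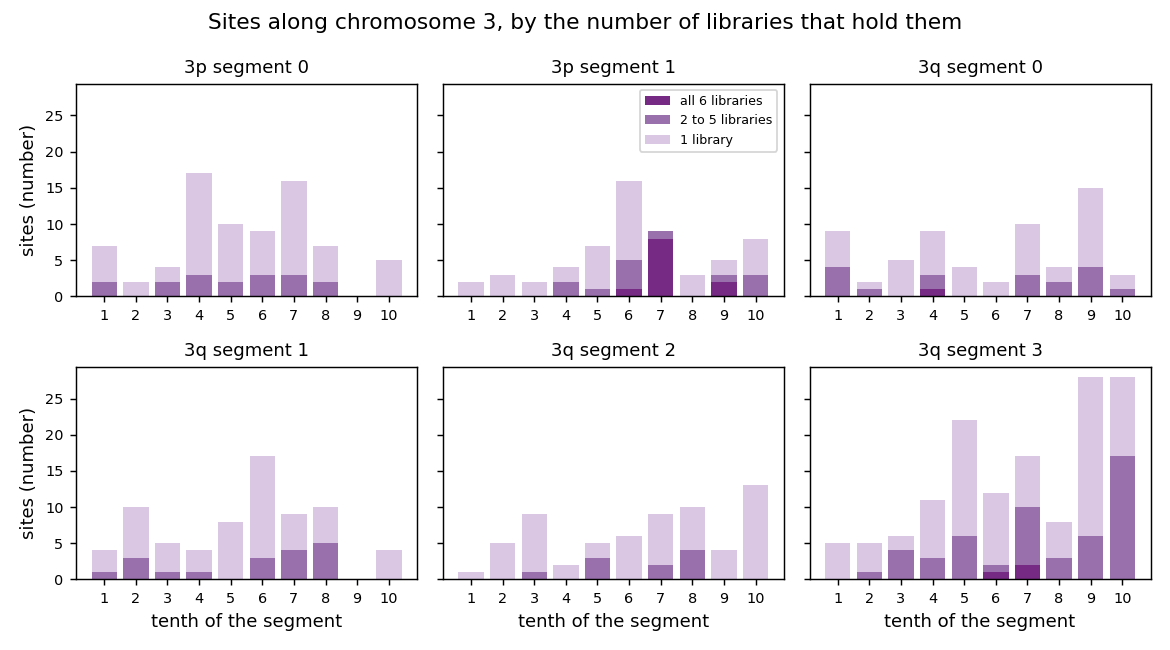
Number of sites in 10 equal parts of each of the 6 segments of chromosome 3, coloured by the number of libraries that hold them. On 3q segment 3 the last 2 parts hold 28 sites each, and on 3p segment 1 part 7 holds 8 of the 15 sites present in all 6 libraries.

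Within 3q segment 3 the sites were crowded towards its far end. Segments of other chromosomes were not divided into parts, so whether they show the same was not tested. Of 10 equal parts, parts 9 and 10 held 28 sites each, against a median of 11.5 per part and a lowest value of 5. In part 10, 17 of the 28 sites were held by 2 to 5 libraries, and none by all 6. Over the whole of chromosome 3, 22.5% of the sites were in 2 libraries, 2.10% in 3, 1.05% in 4, 0.210% in 5 and 3.15% in all 6. On 3p segment 0 and 3q segment 1 the counts per part ranged from 0 to 17, and no part of another chromosome 3 segment held more than 17. Of all chromosome 3 sites, 28.4% had a neighbour within 1000 bp and 33.8% within 100 kb, against 32.0% and 39.2% of the sites on other sequences.

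The shorter lists left some segments without a peak. Blastema 1 and 2 had no listed peak on 3p segment 0 or 3q segment 2, and neither had intact 1. This was also so on 13 of the 60 segments of other chromosomes, so it is not particular to chromosome 3. On 3p segment 0 systemically activated 4 and 5 had 26 and 63 peaks, and intact 2 had 7. On 3q segment 2 they had 18 and 57, and intact 2 had 1. On 3q segment 3 the numbers were 71 and 121 in systemically activated, 7 and 6 in blastema, and 6 and 14 in intact libraries.

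As shares of a list, 3q segment 3 made up 5.11% and 4.09% of the systemically activated peaks, 2.82% and 2.33% of the blastema peaks and 1.97% and 2.90% of the intact peaks. Segment 1 of 3p ran the other way, with 2.09% and 1.86% in systemically activated, 4.44% and 4.65% in blastema, and 3.93% and 2.69% in intact libraries. It was the only segment of chromosome 3 on which both systemically activated shares lay below those of all 4 other libraries. It also held 11 of the 15 chromosome 3 sites present in all 6 libraries. The same order was found on other segments with many such sites, so it is not particular to 3p segment 1. On 5q segment 0, with 13 such sites, the shares were 1.51% and 1.08% in systemically activated libraries. They were 6.85% and 6.98% in blastema and 5.90% and 3.73% in intact libraries. Segments 12q 0, 13q 0 and 4p 0 had this order too. Without 3q segment 3 the difference in the share of chromosome 3 between systemically activated and intact libraries was 4.69 percentage points, in place of 6.53, so 3q segment 3 did not carry all of it.

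**Figure D3:**
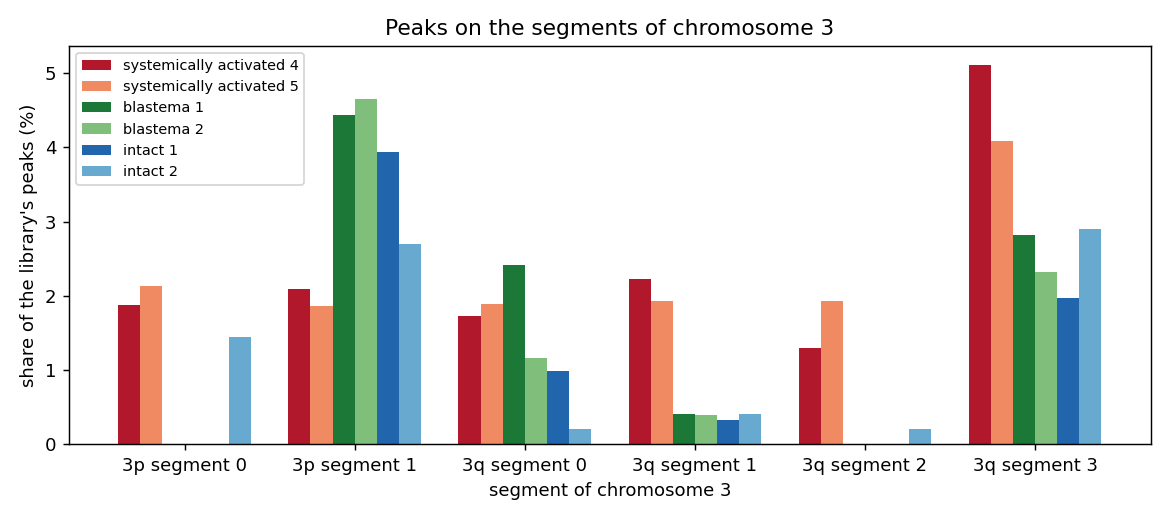
Share of each library's peaks (%) on the 6 segments of chromosome 3, 1 bar per library. The systemically activated bars are the highest on 3q segment 3 (5.11% and 4.09%) and the lowest on 3p segment 1 (2.09% and 1.86%).

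Most chromosome 3 sites were held by a single library. There were 338 such sites (71.0%, background over all sites 69.8%), of which 273 were in systemically activated 5 (57.4% of the chromosome 3 sites, background 54.9%), 60 in systemically activated 4 (12.6%, background 11.6%) and 5 in intact 2 (1.05%, background 2.47%). No site was held by blastema 1 alone (background 0.113%), by blastema 2 alone (0.17%) or by intact 1 alone (0.623%). A further 107 sites were in 2 libraries (22.5%, background 20.8%) and 10 in 3 (2.10%, background 3%). There were 5 sites in 4 libraries (1.05%, background 0.822%), 1 in 5 (0.210%, background 1.11%) and 15 in all 6 (3.15%, background 4.39%).

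Systemically activated libraries held 471 of the 476 sites (98.9%, background 96%), and 433 sites were in these libraries only (91.0%, background 84.2%). A blastema library held 24 sites (5.04%, background 7.62%) and an intact library 40 (8.40%, background 14.7%). Blastema libraries alone held none (background 0.283%) and intact libraries alone 5 (1.05%, background 3.43%). There were 3 sites in systemically activated and blastema but not intact libraries (0.630%, background 0.793%) and 14 in systemically activated and intact but not blastema libraries (2.94%, background 4.76%). Of the 476 sites, 103 (21.6%) were in systemically activated 4 and 5 but in neither intact library, where the background over all sites was 18%, and no chromosome 3 site had the opposite arrangement (background 0.482%). There were 107 sites in systemically activated 4 and 5 but not in the blastema lists (22.5%, background 20%), and again none had the opposite arrangement (background 0.113%). These 2 comparisons share the systemically activated libraries. Both blastema libraries and neither intact library held 1 site (background 0.142%), and both intact libraries and neither blastema library held none (background 0.708%). With the 248 strongest peaks of each list, 1 site in place of 103 was in systemically activated 4 and 5 but not in an intact list, and at a −log10 q of at least 5 there was none. Without systemically activated 4 the number was 376 and without systemically activated 5 it was 169, where 1 list fewer had to hold a site.

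The shorter lists were nearly contained in the longest one on this chromosome. All 25 peaks of blastema 1, all 22 of blastema 2 and all 22 of intact 1 on chromosome 3 overlapped a peak of systemically activated 5. On the other sequences the shares were 87.4%, 89.0% and 78.8%. Intact 2 was the exception, with 29 of its 38 peaks matched (76.3%), against 71.9% on the other sequences. Intact 2 alone held the 5 chromosome 3 sites that were in no systemically activated library (background 3.97%). They all lay on 3p segment 0 between 192315752 and 296842984 and were 79 to 216 bp wide.

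Replicates overlapped on chromosome 3 by 67.8% of the shorter list for systemically activated (135 of 199), 95.5% for blastema (21 of 22) and 81.8% for intact (18 of 22). On the other sequences the shares were 67.7%, 82.5% and 78.4%.

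Sites in both systemically activated libraries and in no other numbered 100 (21.01%, background 17.7%). No site was in the blastema pair alone (background 0%) or in the intact pair alone (background 0.34%). Of the 100, 38 lay on 3q segment 3, and the other segments had 9 to 15. That segment also held 142 of all 476 chromosome 3 sites. They had a median width of 345 bp. Their median percentile by area was 55.2 in systemically activated 4 and 71.5 in systemically activated 5, where a percentile is the rank of a peak's area within its own list and is not comparable between lists of different lengths. None reached the percentiles of the sites in all 6 libraries, as their highest values were 88.7 and 95.5.

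Of the 5 strongest of these sites by median percentile, 4 were on 3q segment 3. The first ran from 359682343 to 359683020 (678 bp) and stood at percentiles 86.0 and 94.3 in systemically activated 4 and 5, with peaks of 636 and 643 bp. The second ran from 363189831 to 363190602 (772 bp). It differed between the replicates, with a peak of 157 bp in systemically activated 4 and of 772 bp in systemically activated 5. The third, from 179615363 to 179615936 (574 bp), stood at 87.5 and 87.6. The fourth, on 3q segment 1 from 46312011 to 46312443 (433 bp), stood at 88.7 and 85.2. The last of the 5 was also on 3q segment 3, from 363798659 to 363799380 (722 bp), at percentiles 77.0 and 94.9.

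By percentile within its own list, the highest sites of a single library were all from systemically activated 5. Its list is the longest, so a given rank has a higher percentile there, and the order does not compare the libraries. On 3p they began at 283460151 on segment 0 (379 bp, percentile 91.4), at 227502049 on segment 1 (441 bp, 81.4) and at 186962364 on segment 0 (557 bp, 78.4). On 3q they began at 195218526 on segment 1 (501 bp, 91.1), at 288611857 on segment 2 (379 bp, 90.4) and at 153389327 on segment 2 (244 bp, 88.5).

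One site was in both systemically activated and both blastema libraries and in neither intact library (background 0.0567%). It lay on 3q segment 0 from 27486586 to 27486849 and closed a row of 4 sites within 3.19 kb that began at 27483659. Its peaks were 264 and 99 bp wide in systemically activated 4 and 5, and 167 and 124 bp in blastema 1 and 2. They were weak in their own lists, at percentiles 65.2 and 32.0 in systemically activated and 4.44 and 16.3 in blastema libraries. Of the other sites in the row, the ones from 27483659 to 27484517 and from 27485296 to 27485844 were in intact 1 as well, at percentiles 43.0 and 26.6. The row as a whole was therefore not lacking in intact 1, while intact 2 had no peak at any of its 4 sites. No site was in both libraries of 2 groups while lacking in systemically activated or in blastema libraries (backgrounds 0.0283% and 0.198%).

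A few more sites were held by 3 to 5 libraries. Among these 16 sites, 7 were in both systemically activated libraries and intact 2, which have the longest lists. The share of all sites with this combination was not counted, so it is not read as a trait of chromosome 3. These 7 sites include a pair on 3q segment 3 from 350916465 to 350917087 and from 350917222 to 350917581. The pair lies in a group of 6 sites spread over 199.7 kb. One site was held by all libraries but intact 2, on 3q segment 1 from 291013115 to 291013514. Its peaks were 371 and 351 bp wide in systemically activated 4 and 5, only 79 and 85 bp in blastema 1 and 2, and 335 bp in intact 1. A site on 3q segment 3 from 241662029 to 241662622 was in systemically activated 5, both blastema libraries and intact 1, with widths of 322, 321, 559 and 454 bp.

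The 15 sites held by all 6 libraries were 3.15% of the chromosome 3 sites (background 4.39%), and they carried most of the peak area. They made up 85.9% and 70.3% of the summed area of chromosome 3 peaks in systemically activated 4 and 5, 98.5% and 98.9% in blastema 1 and 2, and 98.9% and 98.6% in intact 1 and 2. Over the whole genome chromosome 3 held 19.3% and 19.4% of the area at sites of all 6 libraries in systemically activated 4 and 5. It held 19.7% and 21.8% in blastema and 18.4% and 19.5% in intact libraries. By area its shares of the whole lists were close (same order: 18.3% and 17.3%, 19.5% and 21.3%, 17.8% and 18.6%). The weight of the shared sites was therefore not particular to chromosome 3. Sums of area grow with the length called as peaks. The covered length on chromosome 3 was 54.9 and 117 kb in systemically activated, 20.3 and 18.8 kb in blastema, and 18.7 and 20.5 kb in intact libraries. By number these sites took in 8.54% and 3.91% of the chromosome 3 peaks in systemically activated, 68.0% and 77.3% in blastema, and 81.8% and 44.7% in intact libraries. Sites in all 6 libraries had a median width of 950 bp on chromosome 3 and of 691 bp elsewhere. Sites of a single library had 194.5 bp on chromosome 3 and 185 bp elsewhere.

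Of these sites 11 were on 3p segment 1, 3 on 3q segment 3 and 1 on 3q segment 0. The segments 3p 0, 3q 1 and 3q 2 had none. Per 100 Mb this came to 1.29 such sites on 3p and 0.262 on 3q, the reverse of the order for all sites (15.9 on 3p and 22.3 on 3q).

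Chromosome 3 was then set against the rest of each list. Its median peak width was 192 and 223 bp in systemically activated, 562 and 576 bp in blastema, and 544 and 282 bp in intact libraries. On the other sequences the medians were 200.5 and 223 bp in systemically activated, 337 bp in both blastema libraries, and 288 and 207 bp in intact libraries. The mean difference, chromosome 3 minus the rest, was 131 bp. It was positive in 4 of 6 libraries, at 0 in systemically activated 5 and below 0 in systemically activated 4 (exact permutation test by sign flips over 6 libraries, 2-sided, p = 0.125). The wide shared sites of chromosome 3 were known when it was chosen, and all libraries hold the same loci, so no conclusion is drawn from the p. The share of peaks at sites of all 6 libraries differed by 6.14 percentage points on average. The libraries disagreed in sign. Chromosome 3 lay below the rest in systemically activated 4 (8.54% against 12.5%), systemically activated 5 (3.91% against 5.99%) and blastema 1 (68.0% against 69.1%). It lay above the rest in blastema 2 (77.3% against 67.8%), intact 1 (81.8% against 57.2%) and intact 2 (44.7% against 34.8%). The mean difference is given without a test, because each library holds these sites by definition. Without intact 1 the mean difference was −0.45. Limited to 248 peaks per list, the differences were 207 bp and 14.7 percentage points.

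The centre of the shared sites was a cluster on 3p segment 1. It had 7 sites, 6 of them held by all 6 libraries. These 6 ran from 259785883 to 259882708, a span of 96.8 kb, of which they covered 11011 bp or 11.4%. The stretch before the cluster was empty. The site before the cluster ended at 243306605, 16.5 Mb away, and was held by 1 library. The site after the cluster began at 262508759, 2.63 Mb away, and was held by all 6. The median gap between chromosome 3 sites was 1.97 Mb. The cluster thus held 6 of the 15 sites of chromosome 3 present in all libraries (40%) and 7 of its 476 sites (1.47%).

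The cluster carried 56.6% and 45.4% of the summed chromosome 3 peak area in systemically activated 4 and 5, 64.8% and 65.9% in blastema 1 and 2, and 63.7% and 63.8% in intact 1 and 2. The lower values in systemically activated libraries go with the larger number of weak peaks elsewhere on their chromosome 3. The length covered by cluster peaks was nearly constant, at 10.7 and 10.8 kb in systemically activated, 10.7 and 10.7 kb in blastema, and 10.3 and 10.4 kb in intact libraries. Areas are scaled within a library, so sites were compared between libraries by their share of the summed area at the 155 sites that all 6 libraries hold over the whole genome. By this measure the cluster had 12.7% and 12.5% in systemically activated, 12.95% and 14.5% in blastema, and 11.9% and 12.6% in intact libraries. Blastema lay above both other groups, and systemically activated overlapped with intact.

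**Figure D4:**
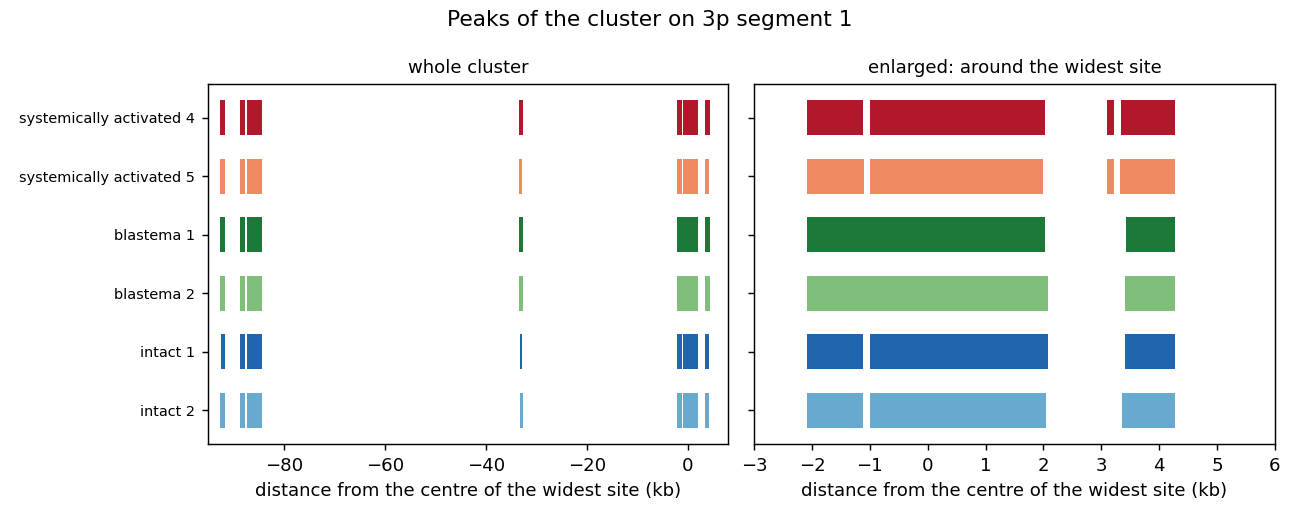
Peaks of each library in the cluster on 3p segment 1, as bars along the distance (kb) from the centre of its widest site, over the whole cluster (left) and around that site (right). All libraries share the same arrangement, but both blastema libraries have a single peak at the widest site where the others have 2, and only the systemically activated libraries have the short peak of 122 and 120 bp beside the last site.

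The largest site of the cluster ran from 259876344 to 259880517 (4174 bp). It held 5.24% and 5.28% of the area at the sites of all 6 libraries in systemically activated 4 and 5, 5.60% and 6.51% in blastema 1 and 2, and 5.32% and 5.46% in intact 1 and 2. It ranked first by area among the 15 sites in every library. The number of peaks called at this site differed between groups. In both blastema libraries the site was a single peak of 4109 and 4170 bp. In the 4 systemically activated and intact libraries it was split into a peak of 981, 976 or 971 bp and a peak of 2997 to 3086 bp, with the gap between 259877314 and 259877434. All 4 split libraries had the same break, and the blastema libraries had none. The gap is short, and whether it comes from the calling of peaks was not tested. How many of the 155 shared sites are split by group was not counted. By area share, blastema lay above both other groups, and systemically activated lay below intact.

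The second largest site, from 259791226 to 259794183 (2958 bp), held 3.68% and 3.55% in systemically activated, 3.59% and 3.71% in blastema, and 3.25% and 3.41% in intact libraries. It ranked second in all libraries. Its width changed little, at 2927 and 2940 bp in systemically activated, 2940 and 2922 bp in blastema, and 2912 and 2888 bp in intact libraries. The strongest points of its peaks lay up to 1964 bp apart between libraries.

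Both neighbours on its left were narrower. The site from 259789744 to 259790882 (1139 bp) held 1.18% and 1.19% in systemically activated, 1.23% and 1.39% in blastema, and 1.15% and 1.20% in intact libraries. The site from 259785883 to 259786843 (961 bp) held 1.04% and 1.08% in systemically activated, 1.08% and 1.21% in blastema, and 0.948% and 1.07% in intact libraries. At both, blastema lay above intact and systemically activated overlapped with intact. The summits at the 961 bp site agreed within 13 bp over all 6 libraries.

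The last 2 shared sites of the cluster behaved differently from each other. The site from 259844933 to 259845761 (829 bp) stood alone in the middle of the span and was the weakest. It held 0.361% and 0.273% in systemically activated, 0.421% and 0.542% in blastema, and 0.307% and 0.386% in intact libraries. Its width varied more than that of the others, at 716 and 764 bp in systemically activated, 777 and 751 bp in blastema, and 502 and 548 bp in intact libraries, so intact peaks were narrower than all others. The site from 259881759 to 259882708 (950 bp) held 1.14% and 1.14% in systemically activated, 1.02% and 1.12% in blastema, and 0.899% and 1.07% in intact libraries. Systemically activated lay above both other groups there. Just before it, the seventh site of the cluster, from 259881527 to 259881660 (134 bp), was held by both systemically activated libraries only, at percentiles 81.1 and 29.4.

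The order of the 6 shared sites by area was nearly fixed. In all libraries the 4174 bp site came first, the 2958 bp site second, the 1139 bp site next and the 829 bp site last. The next 2 places were taken by the 950 bp and 961 bp sites in this order in both systemically activated libraries, and in the opposite order in the blastema and intact libraries.

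Outside the cluster 3p segment 1 had 5 further shared sites. The site from 237846481 to 237846845 (365 bp) was the weakest of the 15 in every library. It held 0.162% and 0.174% in systemically activated, 0.177% and 0.218% in blastema, and 0.224% and 0.184% in intact libraries. The site from 262508759 to 262509790 (1032 bp) held 0.726% and 0.667% in systemically activated, 0.902% and 0.914% in blastema, and 0.877% and 0.887% in intact libraries. Systemically activated lay below both other groups at this site, and its summits agreed within 8 bp, the closest agreement among the 15. At the site from 265483486 to 265484107 (622 bp) the same order was wider apart, with 0.303% and 0.266% in systemically activated, 0.541% and 0.494% in blastema, and 0.459% and 0.435% in intact libraries.

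The last pair on this segment lay close together, from 367585262 to 367585781 (520 bp) and from 367593398 to 367593838 (441 bp). The first held 0.583% and 0.670% in systemically activated, 0.579% and 0.681% in blastema, and 0.703% and 0.764% in intact libraries. The second held 0.303% and 0.395% in systemically activated, 0.297% and 0.451% in blastema, and 0.425% and 0.495% in intact libraries. At both, systemically activated lay below intact. Blastema lay below intact at the first and overlapped with it at the second.

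On 3q the shared sites were fewer. The site on segment 0 from 130527955 to 130528538 (584 bp) held 0.555% and 0.501% in systemically activated, 0.758% and 0.847% in blastema, and 0.611% and 0.701% in intact libraries. On segment 3 the site from 205755797 to 205757291 (1495 bp) held 1.41% and 1.76% in systemically activated, 1.32% and 1.30% in blastema, and 1.59% and 1.66% in intact libraries. Here the blastema values were below all others.

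A pair of adjoining shared sites on 3q segment 3 differed in the same way. The site from 233266679 to 233267538 (860 bp) held 0.918% and 0.875% in systemically activated, 0.783% and 0.871% in blastema, and 0.653% and 0.633% in intact libraries. The adjoining site from 233267971 to 233269954 (1984 bp) held 1.65% and 1.56% in systemically activated, 1.39% and 1.503% in blastema, and 1.02% and 1.12% in intact libraries. Of the 15 sites only these had systemically activated above blastema and blastema above intact, with no overlap. How many of the 155 shared sites have this order was not counted, so it is not read as a trait of chromosome 3. At the 860 bp site the lower systemically activated value and the higher blastema value were close, at 0.875% and 0.871%.

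The peaks of this pair were also wider in the same order. At the 860 bp site the widths were 794 and 860 bp in systemically activated, 779 and 774 bp in blastema, and 692 and 715 bp in intact libraries. At the 1984 bp site the summed widths were 1855 and 1965 bp in systemically activated, 1659 and 1640 bp in blastema, and 1380 and 1472 bp in intact libraries. It was a single peak of 1965 bp in systemically activated 5, 2 peaks in systemically activated 4, 3 in each blastema library, 3 in intact 1 and 2 in intact 2. The peak of systemically activated 5 ran across the gaps seen in the other libraries. A short site just after it, from 233270127 to 233270281 (155 bp), was held by both systemically activated libraries, blastema 1 and intact 2, at widths of 135, 155, 94 and 65 bp.

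**Figure D5:**
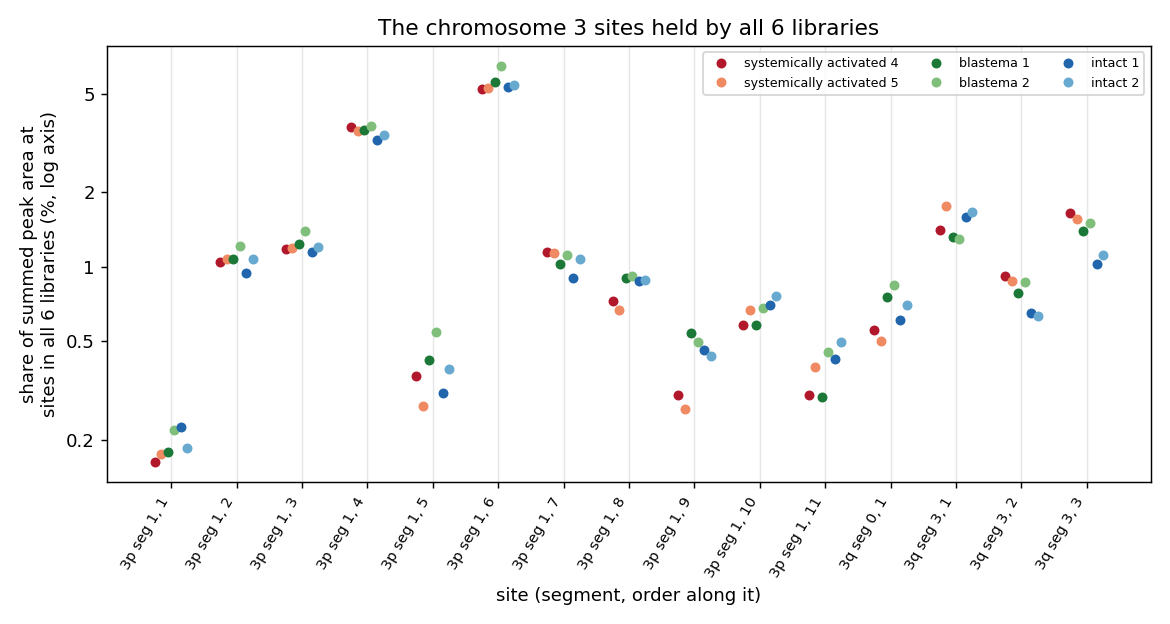
Share (%, log axis) of the summed peak area at the sites of all 6 libraries that each of the 15 chromosome 3 sites holds, 1 point per library, ordered along the segments. The sixth site of 3p segment 1 is the largest (5.24% to 6.51%), and at the last pair, on 3q segment 3, both systemically activated libraries lie above the blastema and the intact libraries.

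Over the 15 sites the area shares of systemically activated libraries lay above both intact values at 4 sites and below both at 7. Over all 155 shared sites the backgrounds were 30.3% above and 31.6% below. Blastema lay above intact at 10 of the 15 sites and below at 2, where the backgrounds were 32.3% and 31.6%. The 15 sites include the 6 of the cluster, of which blastema lay above intact at 5. Sites of 1 cluster are not independent places. Systemically activated lay above blastema at 4 sites and below at 8 (backgrounds 31.6% and 25.2%).

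By width, systemically activated peaks were wider than both intact peaks at 8 of the 15 sites and narrower at 1 (backgrounds 49.7% and 9.03%). Blastema peaks were wider than both intact peaks at 8 and narrower at 2 (backgrounds 26.5% and 27.1%). Systemically activated peaks were wider than both blastema peaks at 5 sites and narrower at 2 (backgrounds 50.3% and 9.03%). Systemically activated peaks were wider than blastema peaks at a smaller share of the 15 sites than of all 155. The 15 are few, and 6 of them lie in 1 cluster and are not independent places. The total length covered at the 15 sites was 18004 and 18296 bp in systemically activated, 17907 and 17833 bp in blastema, and 17107 and 17408 bp in intact libraries. Each of the systemically activated and blastema values was above both intact values.

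The 15 sites kept nearly the same order of area in all libraries. Spearman's rho over the 15 sites was 0.989 to 0.993 within groups and 0.954 to 0.982 between groups. These are correlations over sites of 2 libraries at a time, given as a description. All points share the libraries, and 6 of the 15 lie in 1 cluster. Summits agreed within 8 to 2141 bp over the 6 libraries, with a median of 144 bp.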

How the data were processed

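ATAC-seq peak lists of 6 libraries, 2 for each of 3 groups, were analysed. Per the labels, 10000 sorted 4C cells went into each library and paired reads of 100 bp were sequenced. Bowtie2 2.3.2 and Genrich 0.5 (also written 0.5.0) are named in the submitters' processing notes, without settings. The genome build, the shift of read ends, the handling of duplicates and the filter applied to the lists are not given in the sources used here. Each library has its own list, so peaks were not called on pooled replicates.

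The deposited signal (column 7) is a peak's area, and the deposited −log10 p and −log10 q (columns 8 and 9) belong to its summit. All are the authors' own values for a peak. They are scaled within a library and were used to rank and filter peaks within it. The deposited score (column 5) was not used. The number of peaks above a threshold depends on depth and background, and depth is unknown.

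Sequence names hold the arm, the segment and where on the arm that segment begins. Positions are 1-based within the segment. A gene table of the assembly UKY_AmexF1_1 ended at 1308613873 on 3q, where the lists reach 1525626809, so it was not used for genes.

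Peaks sharing at least 1 bp were joined into sites. Groups were compared by 2-sided exact permutation tests over libraries, and chromosome 3 with the rest of each list by exact sign flips over the 6 libraries, at a threshold of 0.05. The share at sites of all 6 libraries, which every library holds by definition, is given without its test. The joining and the tests were tested on simulated data. Python 3.11.15, numpy 2.4.6 and pandas 2.3.3 were used. Alternatives were a −log10 q of at least 5, the 248 strongest peaks of each list, an overlap of 50% of the shorter peak, joining over gaps of up to 500 bp, leaving out unplaced scaffolds, a replicate block, and leaving out each library. Leaving out the sites of all 6 libraries or 3q segment 3 was chosen after the data had been seen. The sites described singly are those in all 6 libraries, those of the 3p cluster, those in 2 groups but not the other, the 5 strongest of each group and the 3 strongest of a single library per arm. The remaining ones in 3 to 5 libraries were picked after their values had been seen. The sites and lists were chosen with earlier results of these data known.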

Additional observations from a re-analysis of the deposited data

How the results depend on the processing

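No test of 2 libraries against 2 can reach 0.05, so for those comparisons only the sign was followed, not the size. Of 95 values recomputed under the alternatives, 82 kept their direction and their side of the threshold, or, for numbers of sites, stayed within 1.5 times. These 82 include values that shrank. For systemically activated against intact, the log2 difference in peak number fell from 3.30 to 0.25 with 248 peaks per list. The difference in share fell from 6.53 to 1.61 percentage points with 248 peaks per list, and to 1.26 at −log10 q of at least 5. Limited to peaks with −log10 q of 5 or more, the log2 difference in chromosome 3 peak number was −0.27 for systemically activated against intact and −0.22 for systemically activated against blastema, and the difference in share was −2.29 percentage points for systemically activated against blastema. All 3 have the opposite sign to the full lists. At this setting the whole systemically activated lists were also shorter than both intact lists (65 and 57 against 83 and 74 peaks). Under the same setting the share at sites of all 6 libraries differed by 26.0 points between chromosome 3 and the rest, and 0 sites were in systemically activated 4 and 5 but not in an intact list. Limited to 248 peaks per list, the log2 difference for blastema against intact turned to 0.16. Chromosome 3 then exceeded the rest by 207 bp in median width and by 14.7 points in the share at sites of all 6 libraries, and 1 site was in systemically activated 4 and 5 but not in an intact list. The share under both settings and the width under the second are among the values that changed side of the threshold. No conclusion is drawn from their sign-flip test, since every library holds the same shared sites and the libraries are not independent for it. The cause of these shifts was not tested.

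Leaving out 1 library gave log2 differences in peak number of 2.78 to 3.82 for systemically activated against intact, 3.08 to 4.12 for systemically activated against blastema, and −0.70 to 0.092 for blastema against intact, the last positive without intact 2. Differences in share were 6.20 to 6.85, 3.99 to 5.54 and 0.987 to 2.54 points in the same order. Sites in the systemically activated but not the intact lists numbered 104 to 376. The widths differed by 106 to 159 bp, and the share at sites of all 6 libraries by −0.45 to 8.15 points, the negative value without intact 1. Sites in all libraries numbered 15 or 16 on chromosome 3 and 6 in the cluster. Blastema and intact share replicate numbers that the labels do not tie to an animal or a day. With a replicate block the difference in share was 1.76 points (exact permutation p = 0.5, the smallest possible). Without the sites of all 6 libraries the share of chromosome 3 differed by 9.50 points between systemically activated and intact, 6.19 between systemically activated and blastema, and 3.31 between blastema and intact. In the last of these the groups overlapped, at 10.4% and 6.17% in blastema against 3.20% and 6.75% in intact libraries. Joining over gaps of up to 500 bp left 13 shared sites on chromosome 3, 5 of them in the cluster.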
